A study of Brassica oleracea with 12 samples.

Results

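The turn from the growing red leaf to the leaf with a green margin was followed in ornamental kale (Brassica oleracea var. acephala, cultivar JC007-2B) by setting 3 libraries of stage S2 against 3 libraries of stage S1, 6 of the 12 libraries of the series. S2 is the whole leaf once its center is red and its margin green, and S1 is the whole leaf while it is red. Veins had been removed in both groups, both came from the same cultivar, and the labels name no treatment, mutation or growth condition that would separate them. Since S2 leaves were sampled whole, green margin and red center are mixed in each S2 library. The libraries were chosen by their labels and not by any measured value. The other 6 libraries are of the red center and the green margin at the later stage S3. They entered the tests only through the choice of tested entries and the shared estimate of the spread between libraries.

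Values are FPKM, read fragments scaled for transcript length and for the number of mapped fragments, which the authors computed from poly(A) RNA sequenced in read pairs. Of 45714 listed entries, 27272 (59.7%) reached 1 FPKM in at least 3 of the 12 libraries and were tested with limma on log2(FPKM + 1), a scale that understates the change of genes with low values. Each difference is S2 minus S1 on that scale, and a gene was called at a Benjamini-Hochberg adjusted p under 0.05. Summed FPKM lay between 432680 and 448250 in the S2 libraries and between 438410 and 470320 in the S1 libraries. The table holds no read counts, so the absolute depth is unknown and no counting interval is given. Whether replicate libraries are separate plants is not stated, so p-values here measure only the spread between these samples, which may be technical.

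A young leaf grows first by cell division, which demands DNA replication, histones, mitotic motor proteins and many new ribosomes. As division ends, cells expand and their plastids are filled with thylakoid membranes that carry the photosystems and their chlorophyll-binding antennae, and leaf color then follows the balance between chlorophyll and the red anthocyanins, which are made by the flavonoid branch of phenylpropanoid metabolism. Genes were described in 48 classes defined by gene ontology terms and words of the product descriptions, which hold 1902 different tested genes. The classes were chosen with earlier results of these data known, so their directions do not test that sequence of events. Classes overlap, and their counts and medians are descriptions to be read against the same values over all tested genes, which are given with the first counts. In whole tissue, fewer cells of a type and less RNA per cell cannot be told apart.

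The S1 libraries did not form one group. On the log2 scale, S1 replicate 1 lay nearer to the mean of the S2 libraries than to the mean of S1 replicates 2 and 3 in 21480 of 27272 tested genes (78.8%). With all libraries, limma called 0 genes as higher and 2 as lower in S2, or 0.0% and 0.00733% of those tested, and each of the others had an adjusted p of at least 0.403. The S2 mean was higher in 11698 genes (42.9%) and lower in 15571 (57.1%). At an unadjusted p under 0.05, 1009 genes (3.7%) had higher and 2288 (8.39%) lower means in S2. Without S1 replicate 1, the calls were 1278 genes higher (4.69%) and 2984 genes lower (10.9%), with 2 libraries left in S1 and the spread pooled over all groups. S1 replicate 1 did not enter that fit, and in 4191 of the 4262 genes it called (98.3%) that library lay nearer to the S2 mean, with 97.7% of those called higher and 98.6% of those called lower. Among the 1278 genes called higher, it lay inside the range of the S2 libraries in 790 (61.8%), above every S2 library in 300 (23.5%) and below every S2 library, on the side of the other S1 libraries, in 188 (14.7%). Among the 2984 called lower, it lay inside the S2 range in 1819 (61.0%), below it in 649 (21.7%) and above it in 516 (17.3%). Across the tested genes, its log2 values correlated at 0.9107, 0.9406 and 0.9182 with S2 replicates 1, 2 and 3 but at 0.7493 and 0.7609 with S1 replicates 2 and 3, a description over genes, which are not independent replicates. Results are therefore given with and without this library, and nothing in the labels says which of the S1 libraries is the more typical. Whether its stage label is right was not tested, and it bears on every S1 value with all libraries. It was singled out because its values lie near S2, so the differences and adjusted p-values without it are conditional on that choice. S3 green margin replicate 3, at 0.8985 and 0.9115 with S1 replicates 2 and 3 against 0.8547 and 0.8525 with the other libraries of its own group, also stood apart from its group and enters the spread in both fits. Class counts without S1 replicate 1 are to be read against the 4.69% higher and 10.9% lower of all genes, and counts without overlap against 4.71% and 6.7%.

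**Figure D1:**
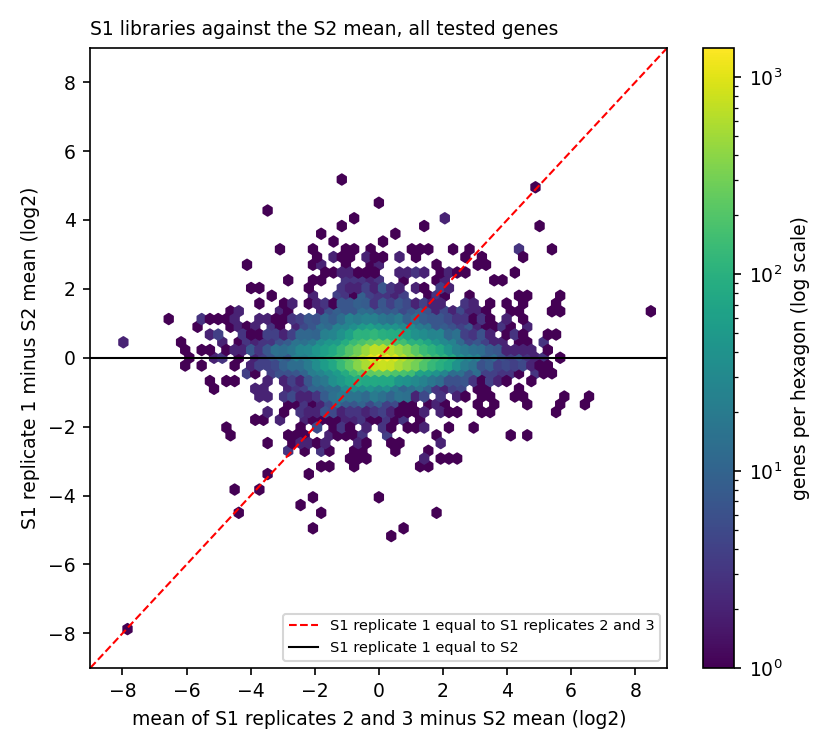
Each hexagon counts tested genes by the mean of S1 replicates 2 and 3 minus the S2 mean (horizontal axis) and by S1 replicate 1 minus the S2 mean (vertical axis), both in log2(FPKM + 1). The dashed line marks genes in which S1 replicate 1 equals the other S1 libraries and the solid line genes in which it equals S2. The cloud follows the solid line, as 78.8% of genes lie nearer to S2. Both axes share the S2 mean.

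Photosynthesis genes had higher means in S2 than in S1, and the low values stood in S1 replicates 2 and 3. Of 70 tested genes of the photosystems and their antennae, 53 had a higher mean in S2, with a median difference of 0.89 beside -0.09 over all tested genes, and none was called with all libraries. Without S1 replicate 1, 26 of the 70 (37.1%) were called higher and 2 (2.86%) lower, with a median of 1.503 beside -0.12 over all genes. These genes took 2.49%, 3.69% and 4.63% of all FPKM in S2, against 4.18%, 0.844% and 0.938% in S1. S1 replicate 1 stood inside the range of the S2 libraries, at more than each of the other S1 libraries. In none of the 70 did all S2 libraries exceed all S1 libraries, against 4.71% of all tested genes, and in 2 all were lower, against 6.7%.

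The 25 antenna and other chlorophyll-binding genes, all of them among the 70, had a median difference of 1.12, with 21 higher means, and 13 (52.0%) were called higher without S1 replicate 1. The other 45 photosystem genes, a split made after the values were seen, had a median of 0.59, with 32 higher means and 13 (28.9%) called higher without that library. The most abundant antenna gene, Bo4g101180, binds chlorophyll at photosystem I. It had 1245, 2103 and 2306 FPKM in S2, against 2347, 261 and 289.9 FPKM in S1, here and below in the order of replicates 1, 2 and 3. Its difference was 1.69 (SE 0.86), and 2.72 (limma adjusted p = 0.0156) without S1 replicate 1. LHCB4.1, a minor antenna protein of photosystem II, had 813, 986 and 1210 FPKM in S2, against 1141, 254 and 306 FPKM in S1. S1 replicate 1 was inside the S2 range, where in Bo4g101180 it was above every S2 library, and the difference without it was 1.82 (limma adjusted p = 0.0335). Not every member followed: PQL3, a PsbQ-like protein named after its values were seen, had 1.104, 0.5496 and 0.576 FPKM in S2, against 1.001, 3.46 and 5.09 FPKM in S1, overlapping, and was called lower without S1 replicate 1, at -1.59 (limma adjusted p = 0.0309).

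Electron transport genes also had higher means in S2, with a smaller median. Of 28 tested genes of photosynthetic electron transport, 21 had a higher mean in S2, with a median of 0.60, and 7 of the 28 were called higher and 1 (3.57%) lower without S1 replicate 1, against 4.69% and 10.9% of all genes. Bo9g006480, the iron-sulfur subunit of the cytochrome b6-f complex that links the photosystems, had 204, 428 and 530.4 FPKM in S2, against 428, 66.5 and 109 FPKM in S1. Its difference without S1 replicate 1 was 2.06 (limma adjusted p = 0.03497). Bo1g010620, described as subunit B/B' of a bacterial or chloroplast type ATP synthase and not itself a member of this class, separated all libraries of the groups, with 220.3, 577 and 756 FPKM in S2, against 20.8, 69.4 and 105 FPKM in S1. Here S1 replicate 1 was the lowest of the 6, and the difference was 3.07 (SE 0.86), with 2.41 (limma adjusted p = 0.0929) without it, which was not called. The ferredoxin-like gene FdC1, also without overlap, had 24.9, 22.7 and 30.6 FPKM in S2, against 20.96, 11.97 and 19.4 FPKM in S1, and PAA1, a copper transporter that supplies plastocyanin, was lower in every S2 library with 3.95, 4.399 and 3.52 FPKM in S2, against 5.11, 8.03 and 9.73 FPKM in S1. Neither was called in either fit. Named after their values were seen, PGRL1B and NDF2 serve cyclic electron flow around photosystem I. PGRL1B had 63.8, 65.3 and 113 FPKM in S2, against 86.3, 21.1 and 20.9 FPKM in S1, and 1.84 (limma adjusted p = 0.0102) without that library. NDF2, of the NDH complex, had 19.2, 44.8 and 54.2 FPKM in S2, against 47.7, 2.74 and 8.54 FPKM in S1, and 2.64 (limma adjusted p = 0.0157). TAP38, the phosphatase that reverses the light-balancing phosphorylation of the antenna, had 68.5, 95.9 and 122 FPKM in S2, against 83.2, 20.995 and 24.7 FPKM in S1, and 1.98 (limma adjusted p = 0.0113). In these genes S1 replicate 1 lay inside the S2 range and the other S1 libraries below every S2 library.

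Of 19 tested genes in the class of Calvin cycle and carbon fixation, 9 are also tricarboxylic acid cycle genes and 4 are also photorespiration genes. Its values are therefore not those of Calvin cycle enzymes alone. In this class 14 of 19 genes had higher means in S2 (median 0.25, and 0.62 without S1 replicate 1). Without that library, 1 gene (5.26%, near the 4.69% of all genes) was called higher. It was the phosphoribulokinase Bo5g091640, which regenerates the acceptor of carbon dioxide and was named after its values were seen, with 23.5, 36.99 and 70.3 FPKM in S2, against 51.7, 3.67 and 5.77 FPKM in S1, and 2.85 (limma adjusted p = 0.0174). The entry of the small subunit of Rubisco, Bo4g137150;Bo4g137140;Bo4g137200, which merges several gene copies, had 487, 1152 and 1562 FPKM in S2, against 974, 168 and 312 FPKM in S1, a wide spread in both groups. Photorespiration genes, which recycle the product of Rubisco's oxygenase reaction, had 8 of 10 higher means and a median of 0.23, which was 0.54 without S1 replicate 1 and 0.089 without S1 replicate 2. Without S1 replicate 1 none was called higher and 1, ATPUMP1, a mitochondrial carrier named after its values were seen, was called lower, at -1.14 (limma adjusted p = 0.0272). The glycine decarboxylase gene AtGLDP1, a mesophyll marker of this pathway, had 112, 163 and 335 FPKM in S2, against 183, 86.7 and 114 FPKM in S1, with overlapping groups.

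**Figure D2:**
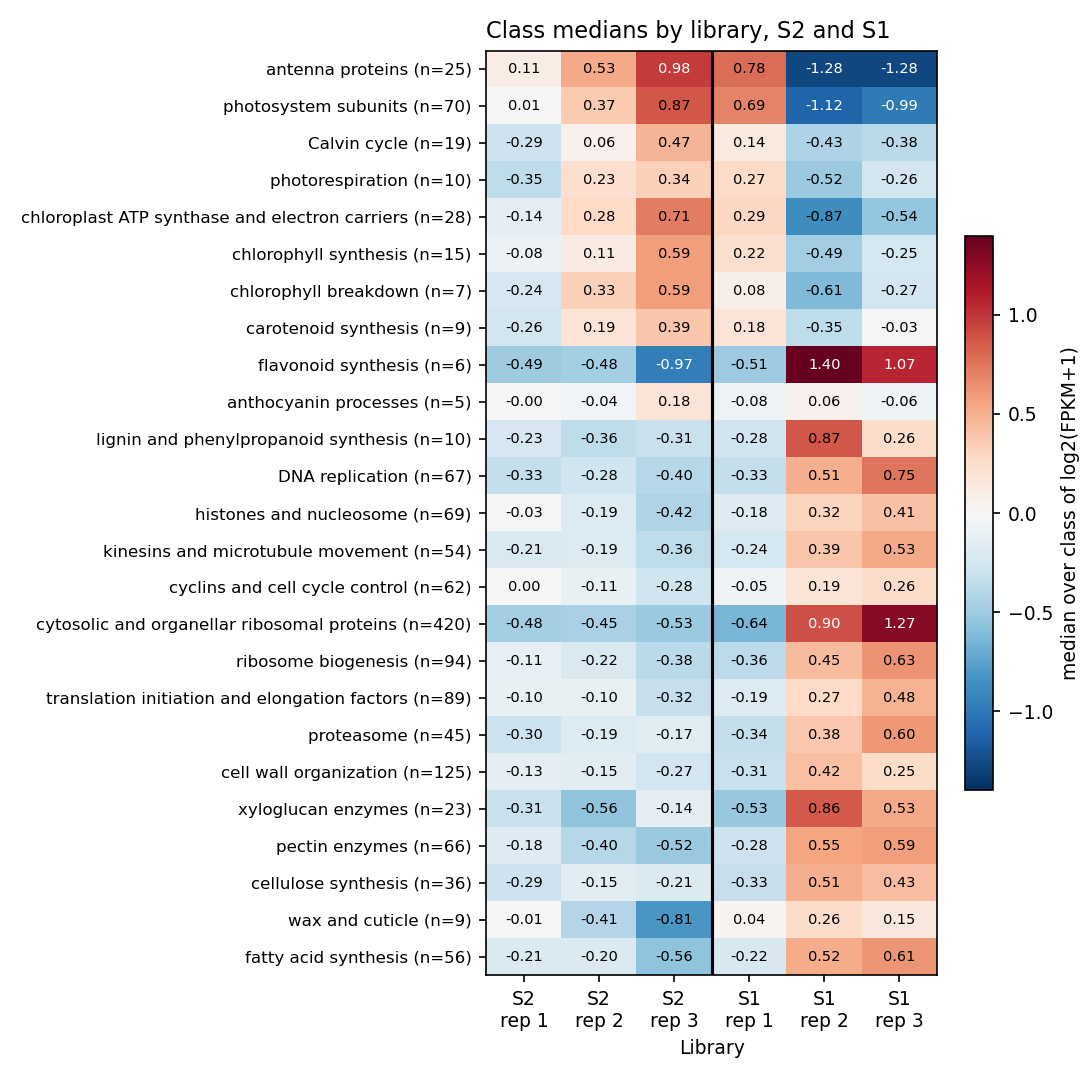
For each class (rows, with the number of tested genes) the color and number give the median over its genes of log2(FPKM + 1) minus the gene's mean over the 6 libraries, in the S2 libraries (left of the line) and the S1 libraries (right). S1 replicate 1 carries the sign of S1 replicates 2 and 3 in few rows. In the antenna row it stands at 0.78, against -1.28 in each of the other S1 libraries.

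Pigment genes split by pathway. All 6 tested flavonoid synthesis genes had a lower mean in S2. Their median difference was -1.19, or -1.75 without S1 replicate 1, and 3 of them were lower in every S2 library than in any S1 library, against 6.7% of all genes. None was called with all libraries and 3 (50.0%) were called lower without S1 replicate 1. The member UGT80B1, a glycosyltransferase named after its values were seen, is the only 1 of the 6 that carries the flavonoid synthesis term, and the others entered by their description. The chalcone isomerase family gene Bo6g068550, whose family closes the flavonoid ring, had 1.34, 2.43 and 0.477 FPKM in S2, against 5.33, 28.6 and 19.1 FPKM in S1. S1 replicate 1 was above every S2 library and well below the other S1 libraries, and the difference was -2.77 (SE 0.87), or -3.42 (limma adjusted p = 0.0324) without it. The family member Bo8g088480, 1 of 2 tested entries of that name and named after its values were seen, had 9.19, 3.31 and 1.56 FPKM in S2, against 3.69, 22.2 and 14.8 FPKM in S1, with overlap, and -1.99 (limma adjusted p = 0.0245) without S1 replicate 1. Bo9g177250 of the same family had 0.806, 0.917 and 0.909 FPKM in S2, against 1.197, 14.3 and 6.48 FPKM in S1, and -2.51 (limma adjusted p = 0.00803) without S1 replicate 1. TT7, the flavonoid 3'-hydroxylase that leads to cyanidin-type pigments, stands outside the class, with neither the flavonoid synthesis term nor a matching description. It had 1.02, 0.233 and 0.3701 FPKM in S2, against 2.37, 47.01 and 20.9 FPKM in S1, again with S1 replicate 1 between the groups, and -4.43 (limma adjusted p = 0.00993) without it. The 5 tested genes annotated to anthocyanin processes include regulators such as CIP7 and the auxin response factor ARF10 and no enzyme described as one of pigment synthesis, and their median was 0.08, with 3 higher and 2 lower means. That median was 0.037 without S1 replicate 1 and -0.046 with library weights. Without S1 replicate 1, 2 of the 5 were called higher, against 4.69% of all genes. They were ARF10, at 1.10 (limma adjusted p = 0.0256), and the protein kinase Bo1g011360, named after its values were seen, at 2.46 (limma adjusted p = 0.0118).

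Chlorophyll synthesis genes had 12 of 15 higher means in S2, a median of 0.32 and of 0.53 without S1 replicate 1, and 2 members (13.3%) called higher without it. The median was 0.14 without S2 replicate 3 and 0.18 without S1 replicate 2. Bo2g082130, annotated as a geranylgeranyl reductase, the enzyme type that prepares the phytyl tail of chlorophyll, had 40.6, 30.02 and 51.5 FPKM in S2, against 29.9, 11.1 and 15.5 FPKM in S1. S2 exceeded S1 without overlap, narrowly over S1 replicate 1, and the difference without that library was 1.53 (limma adjusted p = 0.0382). The other called gene was GUN5, the magnesium chelatase subunit at the start of the chlorophyll branch, named after its values were seen, with 20.5, 23.9 and 59.8 FPKM in S2, against 38.1, 7.02 and 8.08 FPKM in S1, and 1.904 (limma adjusted p = 0.0467). Bo6g072440, annotated to the magnesium-protoporphyrin ester cyclase that forms the last ring of the pigment, had 65.2, 111 and 202 FPKM in S2, against 109.9, 45.7 and 47.4 FPKM in S1, with overlap. The 7 genes annotated to chlorophyll breakdown also had 6 higher means and a median of 0.72, or 0.39 without S2 replicate 3. Their most abundant member, PSB29, is known for thylakoid formation and does not itself break down the pigment. It had 59.6, 114 and 152 FPKM in S2, against 94.5, 88.4 and 121 FPKM in S1, a difference of 0.01 (SE 0.38). Carotenoid synthesis was divided, with 5 of 9 higher means and a median of 0.14, whose sign rests on single libraries. It was 0.30 without S1 replicate 1, -0.093 without S2 replicate 3 and -0.081 without S1 replicate 2. Within it the lycopene cyclase Bo5g137670, which closes the rings of carotenes, separated the groups with 15.2, 30.9 and 59.5 FPKM in S2, against 8.39, 3.59 and 0.0881 FPKM in S1, a difference of 3.12 (SE 1.14), and 3.82 (limma adjusted p = 0.0626) without S1 replicate 1, while LUT1, a hydroxylase of the lutein branch, had 12.03, 22.8 and 23.8 FPKM in S2, against 17.5, 15.7 and 26.9 FPKM in S1.

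In the lignin and phenylpropanoid class, 7 of 10 genes had lower means in S2 (median -0.56), and 4 of the 10 were called lower without S1 replicate 1. ATCAD9, of the cinnamyl alcohol dehydrogenase family that makes lignin alcohols, had 20.1, 8.68 and 2.65 FPKM in S2, against 10.04, 163 and 157 FPKM in S1, and -4.15 (limma adjusted p = 0.0306) without S1 replicate 1. ALDH2C4, an aldehyde dehydrogenase of ferulate and sinapate synthesis, was lower in every S2 library with 14.6, 15.3 and 15.6 FPKM in S2, against 22.5, 46.6 and 28.2 FPKM in S1. Xylem genes differed between the same libraries: the summed level of XCP1, CESA8 and CESA4, a protease and wall cellulose synthases of xylem, was 1.6, 2.53 and 0.461 FPKM in S2, against 1.29, 8.41 and 6.31 FPKM in S1. Their part in the lignin values, or in the cell wall values below, was not tested. XCP1 and CESA8 reached 1 FPKM only in S1 replicates 2 and 3 and S3 green margin replicate 3, and so passed the filter through these.

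Cell division genes had lower means in S2. Of 67 tested DNA replication genes, 59 had lower means. The median difference was -0.66, or -0.995 without S1 replicate 1, and 29 (43.3%) were called lower and 0 higher without it, against 10.9% and 4.69% of all genes. Groups without overlap were no more frequent than over all genes, at 5.97% lower in S2 against 6.7%. The helicase Bo7g067790, annotated to the MCM complex that opens replication origins, had 1.03, 1.26 and 1.33 FPKM in S2, against 1.34, 8.69 and 10.6 FPKM in S1. S1 replicate 1 stood at the upper edge of S2, far from the other S1 libraries, and the difference without it was -2.27 (limma adjusted p = 0.0132). POLD4, a small subunit of DNA polymerase delta, had 9.43, 8.81 and 11.5 FPKM in S2, against 12.5, 28.4 and 19.6 FPKM in S1, without overlap, and was not called in either fit. The most abundant member, Bo2g155430, differed little, with 25.99, 31.3 and 25.99 FPKM in S2, against 29.4, 35.1 and 36.96 FPKM in S1.

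Histone and nucleosome genes had 55 of 69 lower means (median -0.35, and -0.51 without S1 replicate 1), with 18 (26.1%) called lower and 2 (2.9%) higher without it. The groups did not overlap in 10 members with lower values in S2, or 14.5% against 6.7% of all genes. The histone H2A entry Bo3g017690;Bo3g017700 had 1.12, 0.637 and 0.701 FPKM in S2, against 1.34, 33.7 and 50.4 FPKM in S1, and -4.55 (limma adjusted p = 0.00481) without S1 replicate 1. The histone H3.3 gene Bo1g003080, of the variant that is deposited also outside replication and the most abundant of the class, had 719, 501 and 401 FPKM in S2, against 608, 706 and 658 FPKM in S1, with overlapping groups and a difference of -0.32 (SE 0.41). Histone copies are nearly identical in sequence, and how the authors' counting shared reads among them is not given in the sources used here. ATSAR1, lower in every S2 library, is described as a secretion GTPase but also carries the nucleosome term, so its entry may join neighbouring genes and is not read as a histone.

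Kinesins and other microtubule motors, which move chromosomes and build the division plate, had 46 of 54 lower means and a median of -0.50. In 11 (20.4%, against 6.7% of all genes) all S2 libraries were below all S1 libraries, and 14 (25.9%, against 10.9%) were called lower without S1 replicate 1. PAK, described as an armadillo repeat kinesin, had 2.599, 1.96 and 1.58 FPKM in S2, against 3.06, 7.04 and 7.63 FPKM in S1, and -1.47 (limma adjusted p = 0.02302) without that library. The entry Bo2g075590;Bo2g075620, which joins a kinesin-like gene and another that carries an endopeptidase inhibitor term, was very high in 1 library, with 8.605, 0.185 and 1.71 FPKM in S2, against 0.305, 773 and 32.5 FPKM in S1. Cyclins and other cell cycle genes were more mixed, with 44 of 62 lower means, a median of -0.25, and 13 (21.0%) called lower and 3 (4.84%) higher without S1 replicate 1, against 10.9% and 4.69% of all genes.

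Genes of protein synthesis and of the proteasome mostly had lower means in S2, ribosomal protein genes almost throughout. Of 420 tested ribosomal protein genes, 389 had lower means in S2 and 31 higher ones, with a median difference of -0.99. Without S1 replicate 1, 276 (65.7%) were called lower and 3 higher, against 10.9% and 4.69% of all genes, and the median was -1.60. Together they took 2.68%, 2.78% and 2.57% of all FPKM in S2, against 2.44%, 6.45% and 8.22% in S1, so S1 replicate 1 held the lowest share of the 6 libraries. Only 16 (3.81%) were lower in all S2 libraries than in all S1 libraries, below the 6.7% of all genes. Bo4g185980 was one of these, with 10.4, 10.9 and 9.82 FPKM in S2, against 12.1, 67.8 and 85.4 FPKM in S1 and a difference of -1.91 (SE 0.61), or -2.77 (limma adjusted p = 0.00503) without S1 replicate 1. The most abundant, Bo1g047930, had 206, 161 and 111 FPKM in S2, against 134, 445 and 610.3 FPKM in S1, with S1 replicate 1 inside the S2 range, and -1.75 (limma adjusted p = 0.0213) without it. The 26 ribosomal protein genes annotated to plastids, a split made after the values were seen, had a median of -0.40 and 7 calls without S1 replicate 1 (26.9%), beside -1.04 and 269 calls (68.3%) among the other 394. This difference between the subsets was not tested.

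Ribosome biogenesis genes, which process ribosomal RNA and assemble the subunits, had 75 of 94 lower means (median -0.53), with 22 (23.4%) called lower and 3 (3.19%) higher without S1 replicate 1. Bo1g039460, annotated to ribosome biogenesis, had 8.77, 8.05 and 9.13 FPKM in S2, against 9.295, 36.4 and 40.6 FPKM in S1. Its S1 replicate 1 value lay just above S2, and the difference without that library was -2.03 (limma adjusted p = 0.00628). Translation factors had 68 of 89 lower and 21 higher means and a median of -0.34, with 16 (18.0%) called lower and 2 (2.25%) higher without that library. Groups did not overlap in 3 members (3.37%) higher and 1 (1.12%) lower in S2, against 4.71% and 6.7% of all genes. Among those called higher, Bo9g118990, annotated to translation initiation, had 143, 120.5 and 158 FPKM in S2, against 119, 20.3 and 12.98 FPKM in S1. Its difference was 2.09 (SE 0.75), and 3.03 (limma adjusted p = 0.0111) without S1 replicate 1. Proteasome genes, whose products degrade tagged proteins, had 41 of 45 lower means, a median of -0.44, and 13 (28.9%, against 10.9% of all genes) called lower without S1 replicate 1. Its beta subunit gene Bo8g038360 had 1.08, 0.978 and 1.202 FPKM in S2, against 1.41, 6.43 and 7.71 FPKM in S1, and -1.95 (limma adjusted p = 0.0111) without that library.

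**Figure D3:**
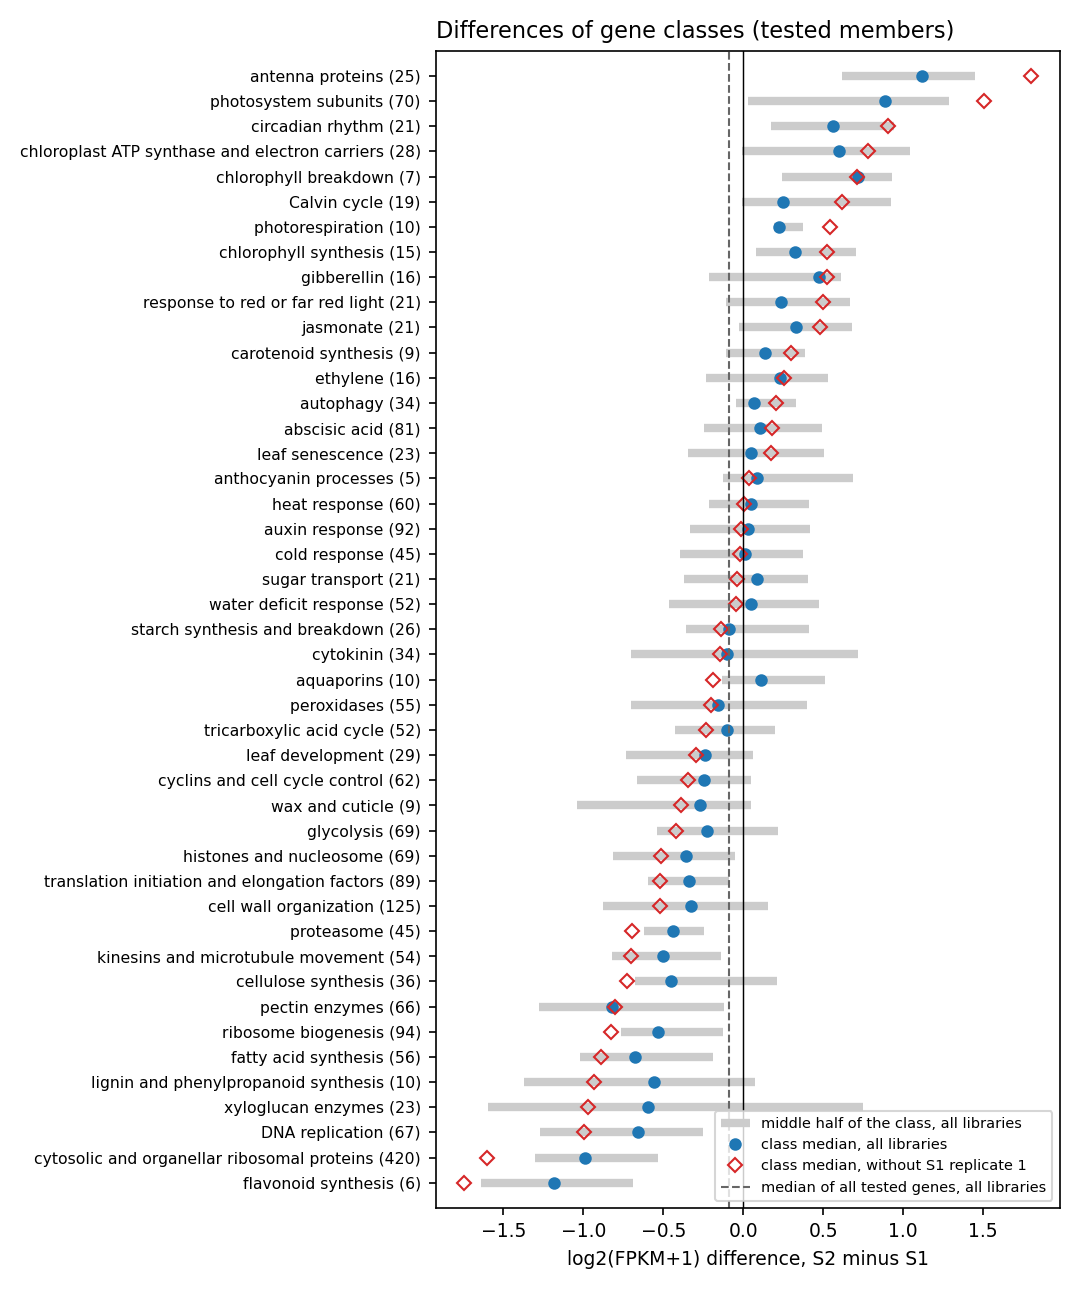
For the 45 classes with at least 5 tested genes (number in brackets), filled points give the median difference in log2(FPKM + 1), S2 minus S1, with all libraries, grey bars the range between the quartiles of the class, and open diamonds the median without S1 replicate 1. The dashed line is the median of all tested genes at -0.09. Leaving out S1 replicate 1 moves the antenna median to 1.80 and the ribosomal protein median to -1.60.

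Cell wall genes had mostly lower means in S2, with single abundant genes on the other side. In the cell wall organization class, 83 of 125 had lower means (median -0.33), and 25 (20.0%) were called lower and 4 (3.2%) higher without S1 replicate 1, against 10.9% and 4.69% of all genes. Bo7g059550, annotated as a structural constituent of the wall, had 0.568, 1.02 and 1.15 FPKM in S2, against 1.598, 18.5 and 66.8 FPKM in S1, and -4.26 (limma adjusted p = 0.0148) without that library. Pectin enzymes had 52 of 66 lower means, a median of -0.82, and 20 (30.3%) called lower and 1 (1.52%) higher without that library. The pectate lyase Bo6g098620, which cuts demethylated pectin, had 0, 0.04497 and 0.0347 FPKM in S2, against 0.127, 14.5 and 19.8 FPKM in S1. All S2 values were below all S1 values, though S1 replicate 1 lay close to S2, and the difference was -4.13 (limma adjusted p = 0.00586) without it. Only S1 replicates 2 and 3 and S3 green margin replicate 3 reached 1 FPKM. The pectate lyase thus passed the filter through libraries where it is high, and its difference is a description only. In contrast the most abundant wall gene, the pectin acetylesterase Bo2g127040, had 1239, 1612 and 1081 FPKM in S2, against 1319, 482 and 611 FPKM in S1. The cell wall organization class took 0.74%, 0.81% and 0.68% of all FPKM in S2, against 0.73%, 0.57% and 0.55% in S1. Pectin enzymes took 0.46%, 0.59% and 0.45%, against 0.495%, 0.35% and 0.36%, so the summed levels did not follow the medians.

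Cellulose synthesis genes had 24 of 36 lower means and a median of -0.45, and members without overlap stood on both sides. Bo3g055540, annotated to cellulose synthesis with an intramolecular transferase activity, had 2.27, 3.58 and 2.98 FPKM in S2, against 5.63, 30.6 and 36.996 FPKM in S1, and -3.15 (limma adjusted p = 0.0103) without S1 replicate 1, while the cellulose synthase Bo2g006860 had 124, 115 and 134 FPKM in S2, against 82.3, 97.6 and 88.4 FPKM in S1. Xyloglucan enzymes, which cut and rejoin the tethers between cellulose fibrils, had 14 of 23 lower means and a median of -0.60 whose sign rests on the filter. It was -0.016 with no filter on low values, 0.26 with a filter at 5 FPKM and -0.054 without S1 replicate 2. Their most abundant member, the endotransglucosylase Bo7g114380, had 579.5, 347 and 315 FPKM in S2, against 485, 15.8 and 4.22 FPKM in S1. S1 replicate 1 stood inside S2 and the other S1 libraries far below, and the difference without it was 5.41 (limma adjusted p = 0.0112).

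Fatty acid synthesis genes, whose plastid products feed membranes and the cuticle, had 49 of 56 lower means in S2 (median -0.68), with 11 (19.6%, against 10.9% of all genes) called lower without S1 replicate 1. In 8 (14.3%) all S2 libraries were below all S1 libraries, against 6.7% of all genes. The acyl carrier protein Bo5g146780, which holds the growing chain, had 5.88, 6.002 and 3.26 FPKM in S2, against 11.6, 22.995 and 24.7 FPKM in S1 and a difference of -1.75 (SE 0.69), with -2.07 (limma adjusted p = 0.0941) without S1 replicate 1. Bo3g140250, annotated as the ketoacyl reductase of the same cycle, had 3.97, 3.098 and 1.94 FPKM in S2, against 4.41, 9.55 and 12.2 FPKM in S1, and -1.59 (limma adjusted p = 0.0173). CER1, an epidermal enzyme of wax alkane synthesis, had 127, 48.8 and 20.3 FPKM in S2, against 107, 223 and 186 FPKM in S1, with S1 replicate 1 inside the S2 range and a wide spread within S2.

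Among classes of central metabolism the medians were small and some genes stood far apart. Tricarboxylic acid cycle genes had 18 higher and 34 lower means (median -0.10, which is 0.01 with median-of-ratios scaling). The malate dehydrogenase Bo2g009460 had 223, 501.7 and 826 FPKM in S2, against 519, 41.6 and 57.2 FPKM in S1, and 3.19 (limma adjusted p = 0.0118) without S1 replicate 1, whereas a second malate dehydrogenase entry, Bo3g183840, had 7.99, 7.91 and 8.04 FPKM in S2, against 10.4, 29.9 and 37.3 FPKM in S1, and -1.94 (limma adjusted p = 0.00773). Glycolysis genes had 44 of 69 lower means and a median of -0.23, with 4 (5.8%) higher and 4 (5.8%) lower without overlap. They took 0.528%, 0.845% and 0.983% of all FPKM in S2, against 0.772%, 0.441% and 0.499% in S1, so the summed level did not follow the median. Their most abundant member, the aldolase Bo7g119470 (1 of 2 tested entries of that name), had 465, 945 and 1192 FPKM in S2, against 863, 267 and 375 FPKM in S1. The phosphofructokinase family gene Bo5g017360 had 1.802, 2.06 and 1.32 FPKM in S2, against 2.42, 21.2 and 23.8 FPKM in S1, and -3.12 (limma adjusted p = 0.00626) without S1 replicate 1. Starch genes had a median of -0.09, or 0.03 with median-of-ratios scaling, sugar transport genes 0.09 and aquaporins 0.11. None of these 3 signs held under each alternative, and without S1 replicate 1 the medians were -0.14, -0.037 and -0.19 in that order. The water channel PIP1B, with the entry here 1 of 2 tested under that name, had 346, 346 and 275 FPKM in S2, against 238, 141 and 201 FPKM in S1, without overlap.

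Hormone and stress classes had members on both sides. Auxin response genes had 48 of 92 higher means and a median of 0.03, with 6 (6.52%) called higher and 8 (8.7%) lower without S1 replicate 1, near the 4.69% and 10.9% of all genes. Bo1g151890, described as an auxin-responsive protein, separated the groups with 49.5, 60.4 and 105 FPKM in S2, against 34.5, 14.96 and 13.8 FPKM in S1, and 2.17 (limma adjusted p = 0.0262) without that library. Medians were -0.10 for cytokinin (0.01 with median-of-ratios scaling), 0.48 for gibberellin, 0.11 for abscisic acid, 0.33 for jasmonate and 0.23 for ethylene. Jasmonate genes had 15 of 21 higher means, with 4 (19.0%) called higher and 0 lower without S1 replicate 1. Gibberellin genes had 11 of 16 higher means, with 1 (6.25%) called higher and 3 (18.8%) lower without it, and 8 of the 16 are also abscisic acid genes. ABF1, a transcription factor of the abscisic acid response, had 28.6, 49.3 and 72.7 FPKM in S2, against 27.6, 18.3 and 18.9 FPKM in S1, without overlap, and 1.29 (limma adjusted p = 0.0368) without S1 replicate 1. COR78, a cold and drought induced protein, also did not overlap, with 159.8, 226 and 572 FPKM in S2, against 48.97, 111 and 74.6 FPKM in S1, and was not called in either fit. Medians were 0.01 for cold, 0.05 for water deficit, 0.05 for heat, -0.16 for peroxidases, 0.05 for senescence and 0.07 for autophagy. Without S1 replicate 1, the medians of the auxin, cold and water deficit classes were -0.015, -0.019 and -0.046, so no direction is read from them. Single genes of these classes stood out, such as the autophagy-related gene Bo7g104500 with 34.2, 41.1 and 37.9 FPKM in S2, against 28.8, 4.84 and 3.91 FPKM in S1 and the peroxidase Bo5g005370 with 1.93, 3.396 and 1.17 FPKM in S2, against 5.35, 26.999 and 30.05 FPKM in S1. Their differences without S1 replicate 1 were 2.85 (limma adjusted p = 0.0135) and -3.28 (limma adjusted p = 0.01603).

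Genes annotated to circadian rhythm had 16 of 21 higher means in S2, a median of 0.56 and of 0.91 without S1 replicate 1, with 4 (19.0%) called higher and 1 (4.76%) lower without it, against 4.69% and 10.9% of all genes. The blue light receptor CRY1, named after its values were seen, had 81.01, 74.95 and 93.5 FPKM in S2, against 86.9, 36.3 and 40.9 FPKM in S1, and 1.08 (limma adjusted p = 0.0118) without S1 replicate 1. The class also holds plastid genes, such as STN7, the kinase that balances light between the photosystems, with 47.98, 87.1 and 105 FPKM in S2, against 80.7, 23.04 and 31.9 FPKM in S1. The sources used here give no time of day for the sampling of leaves. Leaf development genes had 19 of 29 lower means and a median of -0.24, or -0.069 without S1 replicate 3.

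In 1285 genes all S2 libraries lay above all S1 libraries and in 1827 all lay below, or 4.71% and 6.7% of those tested. Among genes with a named product, the largest such differences upward, beside the lycopene cyclase and the ATP synthase subunit above, included a PLATZ transcription factor, Bo6g120700, with 136, 163 and 51.3 FPKM in S2, against 45.2, 10.2 and 4.02 FPKM in S1 (1 of 2 tested entries of that name). The oil body protein oleosin, Bo8g050570, had 56.96, 40.96 and 41.7 FPKM in S2, against 31.6, 2.87 and 1.18 FPKM in S1, and 4.01 (limma adjusted p = 0.00687) without S1 replicate 1. The tetratricopeptide repeat protein Bo1g010520 had 34.01, 45.9 and 49.1 FPKM in S2, against 2.94, 8.26 and 8.26 FPKM in S1, and 2.23 (limma adjusted p = 0.0202). S1 replicate 1 was the lowest of the 6 libraries in this gene, as in the ATP synthase subunit, and the highest of S1 in the oleosin and PLATZ genes. The remorin Bo4g014570, of a family of membrane microdomain proteins, had 12.3, 9.13 and 8.07 FPKM in S2, against 0.909, 2.66 and 0.557 FPKM in S1. The small GTPase entry RAB7 had 17.8, 24.3 and 36.4 FPKM in S2, against 11.9, 4.37 and 2.29 FPKM in S1, and AtGolS4, a galactinol synthase of raffinose synthesis, had 0.944, 3.91 and 13.96 FPKM in S2, against 0.576, 0 and 0 FPKM in S1.

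The largest downward differences without overlap, beside TT7, the chalcone isomerase homolog, the pectate lyase and histone H2A, were of transport, redox and cytoskeleton genes. The malate transporter Bo7g014450 had 7.32, 1.54 and 0.3098 FPKM in S2, against 8.93, 76.7 and 51.6 FPKM in S1, with a difference of -3.51 (SE 1.11) and -4.40 (limma adjusted p = 0.0298) without S1 replicate 1. The heavy metal transport family gene Bo3g024150 had 3.08, 1.35 and 0.876 FPKM in S2, against 3.84, 67.8 and 68.8 FPKM in S1, and -4.73 (limma adjusted p = 0.0136). The thioredoxin-dependent peroxidase Bo6g099630 had 0.295, 0.0752 and 0.0708 FPKM in S2, against 0.333, 113 and 6.59 FPKM in S1, where 1 library carries most of the mean. The beta-tubulin Bo3g134050, a microtubule subunit, had 0.547, 0.274 and 0.178 FPKM in S2, against 1.31, 12.3 and 19.8 FPKM in S1, and -3.65 (limma adjusted p = 0.0106). In these genes S1 replicate 1 was the S1 library closest to S2, and in the malate transporter it exceeded the highest S2 library by a small margin. The tubulin and the thioredoxin-dependent peroxidase reached 1 FPKM in no S2 library and in no red center library of S3. They passed the filter through S1 and S3 green margin libraries, among them those where they are high, so their differences are descriptions only.

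**Figure D4:**
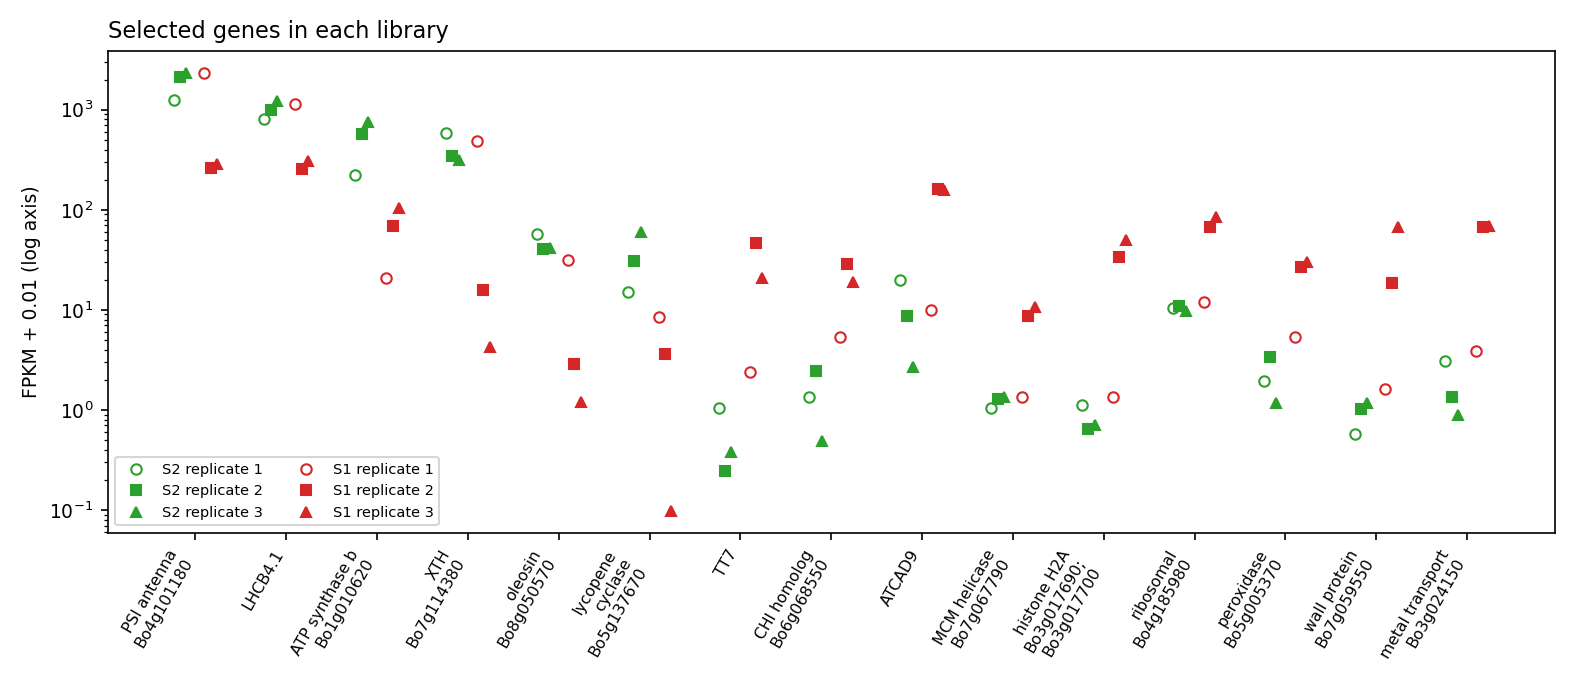
FPKM plus 0.01 on a log axis for 15 genes named in the text, with S2 libraries in green left of S1 libraries in red. Open circles are replicate 1 of each stage, squares replicate 2 and triangles replicate 3. In most genes the open red circle stands with the green points, as in the photosystem I antenna gene, where it is at 2347 FPKM against 261 and 289.9 FPKM in the other S1 libraries.

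Both genes that limma called with all libraries were lower in S2 and listed at 0 there and in every S3 library. They therefore passed the filter through S1 alone, and the zeros of the other groups lower the pooled estimate of the spread. With only the 6 libraries of S2 and S1, neither was called. Bo8g082410, an oxidoreductase by its annotation, had 0, 0 and 0 FPKM in S2, against 8.13, 18.7 and 22.1 FPKM in S1, with a difference of -4.00 (SE 0.31) and an adjusted p of 0.00182. Bo9g120520, which carries no annotation, had 0, 0 and 0 FPKM in S2, against 29.2, 10.1 and 79.2 FPKM in S1, with -4.91 (SE 0.53) and an adjusted p of 0.0243. Here S1 replicate 1 stood with the other S1 libraries. Zeros also stood beside high values in other entries, as in the antenna gene Bo7g044900, with 171, 0 and 0 FPKM in S2, against 201, 5.86 and 0 FPKM in S1. What lies behind a listed 0 was not tested, so no fold is given and absence is not read from it. The fitted differences of Bo8g082410 and Bo9g120520 depend on the pseudocount.

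The tissue labels were checked against 53 marker genes of leaf cell types and other organs, of which 11 could be matched by Arabidopsis identifier and 5 passed the filter. Beside AtGLDP1, CER1 and the xylem genes above, 6 markers were matched but not tested, listed for stomata, trichomes, meristem, flower, root and seed. None of them exceeded 0.483 FPKM in any of the 6 libraries. The entry matched for root was KAN4, described only as a homeodomain-like protein, so nothing is read about root. No phloem marker was matched, so the phloem was not analysed here. XCP1, the most abundant of the xylem markers in S1 replicates 2 and 3, had 0.545, 0.852 and 0.254 FPKM in S2, against 0.4601, 5.67 and 2.87 FPKM in S1, with S1 replicate 1 at the level of S2.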

How the data were processed

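The 12 leaf libraries were assigned to 4 groups of 3 from their titles. The deposited table gives FPKM, computed by the authors with 1 column per library, and, per the submitters' processing notes, the tools were Bowtie 0.12.2, StringTie 1.3.0 and HISAT2 2.0, with no role stated for any. Genome build and annotation: not given in the sources used here, and no positions or sequences are reported. Of the entries, 34969 carry merged-locus identifiers and 839 name several genes.

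Entries reaching 1 FPKM in 3 or more of 12 libraries were tested with limma 3.58.1 (R 4.3.3) on log2(FPKM + 1): a mean for each group over all 12 libraries, trended eBayes, two-sided, Benjamini-Hochberg over all 27272 entries. The 48 classes were matched by gene ontology term or description, and medians and counts carry no test. Genes were named from a rule: called genes, the 8 largest differences each way without overlap between groups and whose higher group averaged 5 FPKM or more, the most abundant and up to 2 such members each way of each class, and markers. PQL3, PGRL1B, NDF2, TAP38, Bo5g091640, UGT80B1, Bo8g088480, GUN5, ARF10, CIP7, CRY1, STN7, ATPUMP1, Bo1g011360 and Bo7g044900, and Bo3g019600, SEN1 and MSTRG.34328 in the closing section, were chosen after their values were seen. Members, lists and rules were chosen with earlier results of these data known.

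Alternatives were another pseudocount (0.1 or 5), another or no filter, median-of-ratios or quantile scaling, no variance trend, library weights, the 6 libraries alone, a replicate block and each library left out.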

Additional observations from a re-analysis of the deposited data

How the results depend on the processing

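No gene given above as called, with all libraries or without S1 replicate 1, changed direction under the alternatives run. Of the 45 classes with at least 5 tested genes, 13 had a median that changed sign under at least 1 alternative, namely the carotenoid, anthocyanin, xyloglucan, starch, tricarboxylic acid cycle, sugar transport, aquaporin, auxin, cytokinin, senescence, cold, water deficit and heat classes. In 42 of the 45, leaving out 1 library moved the median by over 1.5 times, so sizes of class medians rest on single libraries. Leaving out 1 library at a time gave 0 to 1278 genes called higher and 1 to 2984 called lower in S2, with both upper values without S1 replicate 1, and groups that did not overlap in 5.8% to 21.3% (higher) and 7.7% to 34.1% (lower) of genes. Leaving out a library can only keep or raise the share without overlap, so these shares could not lie below the 4.71% and 6.7% with all libraries. Genes called higher and lower numbered 2 and 0 with only the 6 libraries of S2 and S1, 0 and 1 with a pseudocount of 5, 0 and 1 with no filter, and 0 and 0 with a filter at 5 FPKM. They numbered 1536 and 3634 without S1 replicate 1 and S3 green margin replicate 3 together. Library weights gave 5970 and 8831, but their estimate did not converge. With the replicate number as a block, 0 genes were called higher and 1 lower. Deviations of same-numbered libraries from their group means correlated at -0.27, -0.27 and -0.18. Such values cannot show whether these libraries share plants, because deviations within a group are tied to each other and S1 replicate 1 stands apart. The median of the Calvin cycle and carbon fixation class was 0.61 with library weights, 0.62 without both named libraries, and 0.15 to 0.62 with 1 library left out. The anthocyanin median was 0.20 with median-of-ratios or quantile scaling and -0.046 with library weights. With no filter, medians were -0.13 for lignin, -0.038 for cell wall organization, -0.016 for xyloglucan and -0.038 for pectin genes. With a filter at 5 FPKM they were -0.99 for lignin, 0.26 for xyloglucan and -0.41 for pectin genes, and a pseudocount of 5 gave -0.32 for pectin genes. With 1 library left out, medians ranged over -0.73 to -0.12 for cellulose and -0.97 to -0.054 for xyloglucan genes. The cause of these moves was not tested. The median over all tested genes was 0.01 after median-of-ratios and 0.02 after quantile scaling, against -0.09 as reported. Depth is unknown, so how far low values are limited by it cannot be stated.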

Other observations

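Some genes that no class above describes stood very far apart inside S1, and they were chosen after their values were seen. The beta-galactosidase entry Bo3g019600, whose enzyme type releases galactose from wall and storage sugars, had 2077, 3006 and 1560.3 FPKM in S2, against 2716, 10.9 and 4.84 FPKM in S1. The dark-inducible senescence gene SEN1 had 39.98, 307 and 124 FPKM in S2, against 257, 0.172 and 0.149 FPKM in S1. In both, S1 replicate 1 stood inside the range of S2 and the other S1 libraries were far below every S2 library, and the differences without it were 8.001 (limma adjusted p = 0.00409) and 6.65 (limma adjusted p = 0.00654). The unannotated locus MSTRG.34328 had 392, 234 and 139.8 FPKM in S2, against 0, 0 and 0 FPKM in S1. Its fitted difference, 7.88 (SE 2.09), was the largest of all tested entries, depends on the pseudocount because S1 is listed at 0, and was not called.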
